A study of Mus musculus with 4 samples.

Results

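Elastic fibers have a core of cross-linked elastin laid on a scaffold of fibrillin microfibrils, and the latent TGF-beta binding proteins (LTBPs) tie that scaffold to a growth factor. TGF-beta is secreted in a latent complex, which LTBPs anchor to fibrillin microfibrils until proteases, integrins or thrombospondin release it. In the injured heart, TGF-beta drives fibroblasts to become the myofibroblasts that build the scar, and elastic fibers give tissue its recoil. The mRNA of 10 genes of this system was followed: the 4 LTBP genes Ltbp1, Ltbp2, Ltbp3 and Ltbp4, the fibrillin gene Fbn1, the elastin gene Eln, and the microfibril or elastin-associated genes Emilin1, Fbln2, Mfap4 and Mfap5. They were chosen by symbol for their known roles, and all 10 were found among 32285 listed genes. Each passed the filter on low values, with totals over the kept spots from 1413 UMIs (Ltbp1) to 13164 UMIs (Ltbp4).

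Visium spatial transcriptomics, in which barcoded spots on a slide collect the mRNA of the cells above them, was applied to 10 μm heart sections of adult ICR mice, 12 weeks old and female per the study's methods. All mice had MI, made under isoflurane and buprenorphine by tying the LAD, a coronary artery, for good. The 4 groups were days 1, 4, 7 and 14 after MI, each 1 section from 1 mouse, with no uninjured heart. The labels' day 1 was used where the study's results text names day 2. Values are unique molecular identifiers (UMIs, 1 per captured mRNA molecule), given as CPM, UMIs per 1000000 UMIs of the spots pooled. After spots above 1% hemoglobin UMIs were removed, 7503 of 9102 spots were kept, with 9292678 to 15713779 UMIs per section. Slide barcodes are printed in a fixed set, so pairs of sections shared 1572 to 1918 of them, which does not mean shared cells.

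Spots of each section were ranked by their share of UMIs from Myh6 and Myl2, genes of the cardiomyocyte contractile apparatus, and cut into 4 bands of equal size. The lowest band is the most muscle-poor tissue of a section and the highest the most muscle-rich. Independent cardiomyocyte markers followed the ranking, with 8 of 8 called lower in the lowest band by the test given below. With scaling to total UMIs 7 of the 8 markers were called lower, and Actc1 was not called. Their summed level there was 34060, 11853, 8833 and 42786 CPM on days 1, 4, 7 and 14, against 53323 to 60904 in the highest band. The lowest band was therefore not the same tissue on each day. On day 14 it reached a Myh6 and Myl2 share of 1.94%, against 0.652% on day 4 and 0.706% on day 7, and 141 of its 522 spots had fewer than 1000 UMIs. For this reason the members were also measured in spots with a share under 0.5%, a limit chosen after seeing the data, which 62, 337, 407 and 176 spots met. With 1 mouse per day no test between days was possible. Intervals in parentheses are exact 95% intervals that cover counting error only. In a spot that holds several cells, fewer cells of a type and less RNA per cell cannot be told apart.

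Over the 4 sections, Ltbp2 and Ltbp3 had large log2 fold changes between muscle-poor and muscle-rich tissue. Those of Ltbp1 and Ltbp4 were small and changed sign with the scaling. By day these last genes did not run alike. Scaled to total UMIs, the ratio of the lowest to the highest band was 0.581 on day 1 and 1.74 on day 14 for Ltbp4. For Ltbp1 it was 1.53 on day 7 and 0.672 on day 14. Promoter sequences of the 4 LTBP genes are shown because fold changes differed within this family. The bases upstream of the first RefSeq start (GRCm38.p6) are given 5′ to 3′, without bases that GENCODE vM21 counts as transcribed. Capitals mark CAGAC or its complement GTCTG, the letters of the SMAD box, to which the SMAD proteins of the TGF-beta pathway can bind.
Ltbp1, chr17:75005279-75005528, plus strand: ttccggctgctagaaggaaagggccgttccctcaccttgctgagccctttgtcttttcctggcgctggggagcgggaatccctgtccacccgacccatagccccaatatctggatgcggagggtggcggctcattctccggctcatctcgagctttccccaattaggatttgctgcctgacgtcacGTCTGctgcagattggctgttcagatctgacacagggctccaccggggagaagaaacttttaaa
Ltbp2, chr12:84876533-84876741, minus strand: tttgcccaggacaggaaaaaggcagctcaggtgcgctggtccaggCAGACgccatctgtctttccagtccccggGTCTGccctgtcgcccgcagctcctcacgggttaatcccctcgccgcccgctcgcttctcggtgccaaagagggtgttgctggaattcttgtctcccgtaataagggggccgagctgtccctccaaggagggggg
Ltbp3, chr19:5740650-5740899, plus strand: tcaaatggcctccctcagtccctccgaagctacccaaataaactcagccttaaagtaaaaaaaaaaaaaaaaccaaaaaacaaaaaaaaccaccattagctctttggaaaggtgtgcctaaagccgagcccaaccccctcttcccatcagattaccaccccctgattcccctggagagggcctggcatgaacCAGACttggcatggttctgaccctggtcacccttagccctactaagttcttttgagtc
Ltbp4, chr7:27337693-27337862, minus strand: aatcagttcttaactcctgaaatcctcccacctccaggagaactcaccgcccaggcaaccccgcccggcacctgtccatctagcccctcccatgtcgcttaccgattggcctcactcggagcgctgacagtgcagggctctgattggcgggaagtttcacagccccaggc

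These letters occurred 1 time in the Ltbp1 stretch, 2 times in that of Ltbp2, 1 time in that of Ltbp3 and not in that of Ltbp4. In windows of 250 bases before the start, 42.1% of 27025 promoters held CAGAC on either strand, and so did 4 of the 7 members listed in the table. The GC box GGGCGG was in 4 of the 7 members and 32.9% of all promoters, the TEAD letters GGAATG in 0 of 7 and 12.6%, and the AP-1 letters TGANTCA in 0 of 7 and 6.87%. Eln, Mfap4 and Mfap5 were the other members. Ltbp1 has 2 listed starts and Ltbp4 has 3, and the UMIs do not tell which start was used.

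Of the 10 members, 8 were called higher in the lowest than in the highest muscle band, and 1, Ltbp1, was called lower. In CPM, which is scaled to total UMIs, the 8 were higher in 4 of 4 sections each and Ltbp1 in 3 of 4. The share of all genes higher in CPM in 4 of 4 sections was not computed. On day 1 Mfap4 had 27 UMIs in the lowest and 20 in the highest band. The test was edgeR's quasi-likelihood test on UMIs summed per section and band, with the section as a block, TMM scaling and p-values adjusted over all 11621 genes tested. By this test 27.6% of all genes were higher and 25% lower at an adjusted p under 0.05. The median log2 fold change was 2.36 over the members and 0.07 over all genes tested. Scaling to total UMIs in place of TMM moved the median of all genes to 0.71 and that of the members to 3.01. On that scale 58.5% of all genes were called higher and 10.6% lower, the same 8 members were called higher and none lower. TMM factors, which multiply the UMI total of a library, were larger in the lowest than in the highest band of each section. On day 1 they were 1.29 and 0.915. Ratios by section are therefore lower with TMM than in CPM, and the sections were not counted on the TMM scale.

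**Figure D1:**
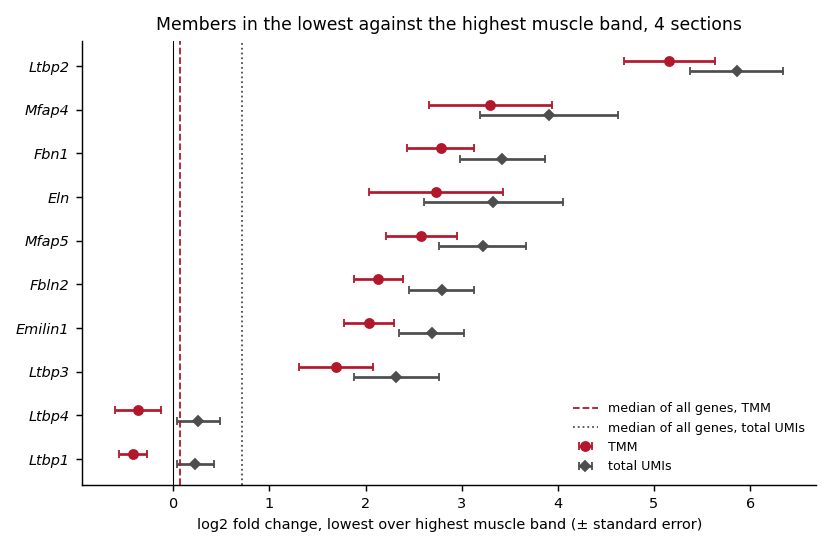
Log2 fold change of UMIs in the lowest over the highest muscle band for each member (points, with standard error bars) from edgeR over 4 sections, with TMM scaling (circles) and with scaling to total UMIs (diamonds). Vertical broken lines mark the median of all 11621 genes on each scale. Ltbp2 lies farthest right at 5.16, and Ltbp1 and Ltbp4 lie below 0 with TMM and above 0 with total UMIs.

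Ltbp2 (ENSMUSG00000002020, chr12:84783212-84876532, minus strand, GRCm38) encodes the LTBP that does not itself bind latent TGF-beta and is a component of microfibrils. In the lowest band it measured 46.0, 428, 466 and 93.1 CPM on days 1, 4, 7 and 14. In the highest band it was 1.72, 8.96, 6.14 and 1.67. The bands did not overlap, with even the lowest value of the muscle-poor spots above the highest of the muscle-rich spots. How many of all genes had bands without overlap was not counted, here or for the members below. Such separation in CPM is therefore a description, on a scale where 58.5% of all genes were called higher. The log2 fold change of 5.16 ± 0.47 (SE) had an adjusted p of 5.89e-06 in edgeR's test over 4 sections and was the largest among the members. Between 66.5% and 89.8% of all Ltbp2 UMIs of a section lay in its lowest band.

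Ltbp3 (ENSMUSG00000024940, chr19:5740904-5758532, plus strand) encodes an LTBP that does carry latent TGF-beta. It measured 53.0, 307, 486 and 172 CPM in the lowest band on days 1, 4, 7 and 14, against 36.5, 35.8, 46.8 and 41.4 in the highest. The muscle-rich level stayed within a narrow range while the muscle-poor level varied over the days, and the bands did not overlap. The log2 fold change was 1.69 ± 0.38 with an adjusted p of 0.00236 by edgeR. The ratio between the bands was 1.45 (1.12 to 1.88) on day 1 and 10.4 (8.56 to 12.7) on day 7.

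Ltbp4 (ENSMUSG00000040488, chr7:27305136-27337692, minus strand) encodes an LTBP that also guides elastin onto microfibrils. It measured 127, 309, 433 and 403 CPM in the lowest band on days 1, 4, 7 and 14 and 218, 252, 283 and 232 in the highest. On day 1 it was lower in the muscle-poor spots, at a ratio of 0.581 (0.509 to 0.664), and on the later days it was above the muscle-rich level by up to 1.74 times (1.58 to 1.91, day 14). Over the 4 sections its log2 fold change was -0.36 ± 0.24 with TMM (adjusted p = 0.217 by edgeR) and 0.26 with total UMIs (adjusted p = 0.311), so that no difference was called and the sign depended on the scaling. Without day 14 it was called lower with TMM, at -0.69 (edgeR, adjusted p = 0.0166). The lowest band contributed 17.1% to 22.5% of its UMIs in each section, and the highest 21.0% to 31.2%. The bands are equal in spots but not in UMIs. The lowest held 2736765 of 11952107 UMIs on day 1 and 2083967 of 15713779 on day 14, so these shares alone do not show a lower CPM. On day 7 the next-lowest band, at 515 CPM, was above the lowest. The lowest band of day 7 held spots of fast skeletal muscle, whose markers had 19054 CPM there. With those spots left out and the rest ranked anew, the Ltbp4 level of that band was higher, as given below.

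Ltbp1 (ENSMUSG00000001870, chr17:75005568-75392512, plus strand) encodes the first described carrier of latent TGF-beta 1. It measured 29.6, 41.3, 48.3 and 17.3 CPM in the lowest band and 27.9, 27.9, 31.5 and 25.7 in the highest, on days 1, 4, 7 and 14. The ranges of the bands overlapped. Its log2 fold change was -0.42 ± 0.15 with TMM (edgeR, adjusted p = 0.0226) but 0.23 with total UMIs (adjusted p = 0.28). The call was also lost without day 1, day 4 or day 14, at adjusted p of 0.0616, 0.0933 and 0.0981, with log2 fold changes of -0.44, -0.42 and -0.30. Only 36 to 114 Ltbp1 UMIs per section came from the lowest band.

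Fbn1 (ENSMUSG00000027204, chr2:125300594-125507993, minus strand), the gene of fibrillin-1 that forms the microfibril itself, measured 236, 868, 1097 and 271 CPM in the lowest band on days 1, 4, 7 and 14. The highest band had 50.6, 29.2, 78.3 and 42.1. Every muscle-poor value exceeded every muscle-rich value, with a log2 fold change of 2.78 ± 0.35 (edgeR, adjusted p = 3.03e-05). The ratio between the bands was largest on day 4, at 29.7 (24.5 to 36.2), since the muscle-rich level was then lowest.

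Eln (ENSMUSG00000029675, chr5:134702593-134747323, minus strand) is the gene of tropoelastin, the soluble precursor of the elastic core. In the lowest band it had the largest rise of the members from day 4 to day 7. Its lowest-band values on days 1, 4, 7 and 14 were 22.7, 83.4, 1086 and 303 CPM, against 15.1, 14.8, 45.3 and 18.8 in the highest. From day 4 to day 7 its level in muscle-poor tissue was 13.0 times higher (11.3 to 15.0), whereas that of Fbn1 was 1.26 times higher (1.19 to 1.35). In the highest band the 2 genes were more alike. There the ratio of day 4 to day 7 was 0.326 (0.233 to 0.451) for Eln and 0.373 (0.294 to 0.473) for Fbn1. The log2 fold change between the bands was 2.74 ± 0.70 (edgeR, adjusted p = 0.00567), with the widest standard error of the members. The bands overlapped, since the lowest band on day 1 was below the highest band on day 7. Within day 1 they had a ratio of 1.5 (1.0 to 2.26) from 62 and 44 UMIs. The lowest band held 24.3%, 40.8%, 60.5% and 75.3% of the section's Eln UMIs on days 1, 4, 7 and 14.

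Mfap4 (ENSMUSG00000042436, chr11:61485431-61488900, plus strand), whose protein binds fibrillin and elastin, was nearly undetected on day 1 and abundant from day 4. It measured 9.87, 468, 914 and 222 CPM in the lowest band and 6.88, 12.4, 26.5 and 19.7 in the highest. The day 1 value, from 27 UMIs, lay below 3 of the 4 muscle-rich values, and the other 3 lay above all of them. The log2 fold change was 3.30 ± 0.64 (edgeR, adjusted p = 0.00095). Day 4 exceeded day 1 by 47.5 times (32.5 to 72.3) in muscle-poor tissue, the largest step of a member between consecutive days sampled.

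Mfap5 (ENSMUSG00000030116, chr6:122505845-122529290, plus strand), the gene of a small glycoprotein that decorates microfibrils, measured 95, 825, 650 and 198 CPM in the lowest band on days 1, 4, 7 and 14. The highest band had 31.3, 36.4, 54.1 and 25.5, all of them below the lowest muscle-poor value. Its log2 fold change was 2.58 ± 0.37 (edgeR, adjusted p = 8.01e-05). Unlike Mfap4, it was higher on day 4 than on day 7 in muscle-poor tissue, with a ratio of day 7 to day 4 of 0.788 (0.730 to 0.850). With the 117 spots of at least 10 UMIs of fast skeletal muscle markers in the 4 sections left out and the rest ranked anew, the direction turned. The day 7 level of Mfap5 was then 876 CPM, in a lowest band formed anew.

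Fbln2 (ENSMUSG00000064080, chr6:91212455-91272540, plus strand) encodes fibulin-2, which binds fibrillin and tropoelastin. It was at 349, 1344, 607 and 189 CPM in the lowest band and at 70.2, 83.5, 82.2 and 55.2 in the highest, with no overlap. The log2 fold change was 2.13 ± 0.26 (edgeR, adjusted p = 1.60e-05). It was among the members already well above the muscle-rich level on day 1, with a ratio of 4.97 (4.27 to 5.81), as were Fbn1 at 4.67 (3.90 to 5.62), Emilin1 at 3.54 (2.82 to 4.48), Mfap5 at 3.04 (2.38 to 3.90) and Ltbp2 at 26.8 (11.2 to 83.9).

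Emilin1 (ENSMUSG00000029163, chr5:30913402-30921277, plus strand) encodes a glycoprotein found where elastin meets microfibrils, which holds back the processing of the TGF-beta precursor. Its level was 121, 368, 240 and 85.4 CPM in the lowest band and 34.1, 26.6, 34.6 and 20.5 in the highest. All muscle-poor values were above all muscle-rich values, and the log2 fold change was 2.03 ± 0.26 (edgeR, adjusted p = 2.84e-05).

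**Figure D2:**
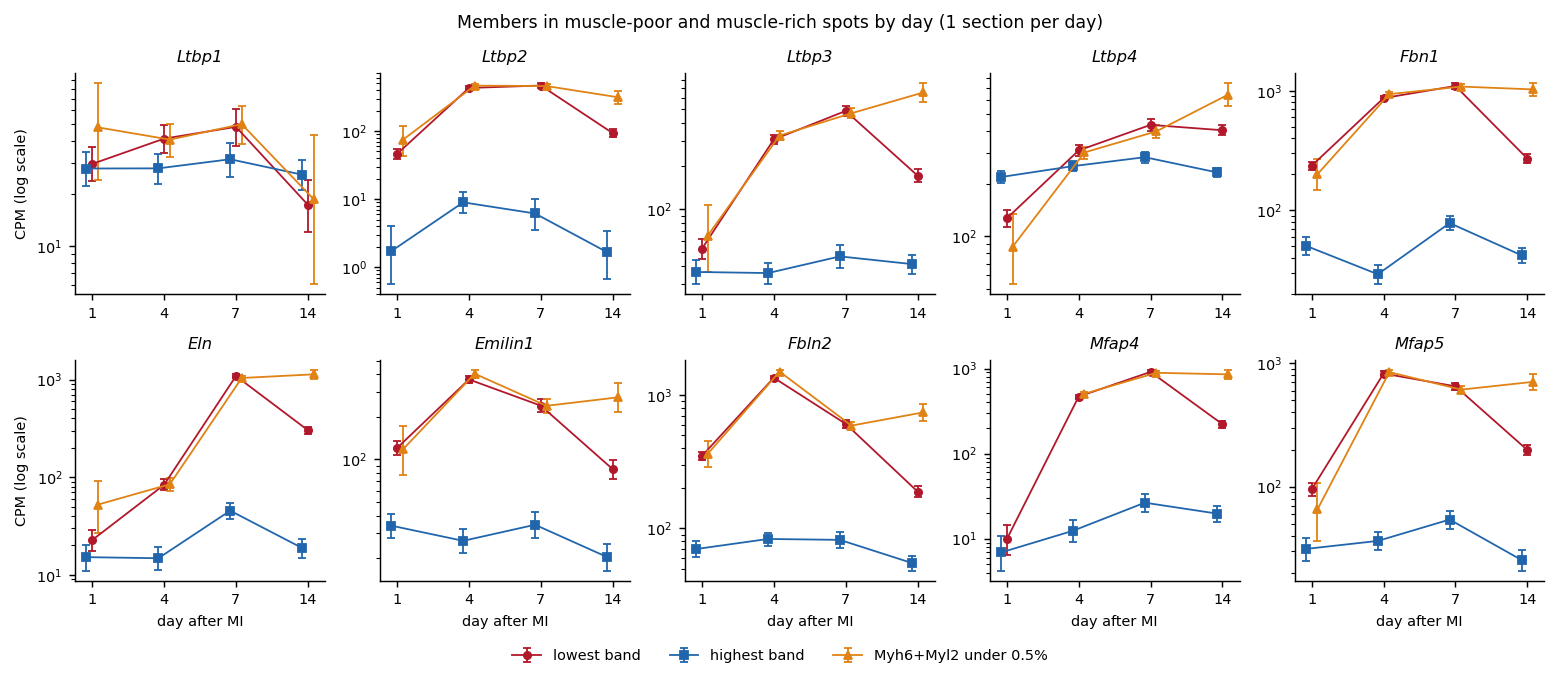
CPM of each member (log axes that differ between panels) against day after MI in the lowest band (circles), the highest band (squares) and spots with a Myh6 and Myl2 share under 0.5% (triangles), 1 section per day, with exact 95% Poisson intervals. Mfap4 in the last of these had 0 UMIs on day 1 and has no point there. Eln reaches 1086 in the lowest band on day 7, while Fbln2 is at its highest, 1344, on day 4.

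In the lowest band the members were at their highest on 2 different days. Emilin1, Fbln2 and Mfap5 were highest on day 4, and the other 7 on day 7, although for Ltbp1 and Ltbp2 the interval of the ratio of day 7 to day 4 included 1. Without the fast skeletal muscle spots, and with the remaining spots ranked anew, Mfap5 was highest on day 7 too. Emilin1 and Fbln2 then remained the 2 members highest on day 4. On day 14 the level of all 10 in this band was under that of day 7, from 0.932 times for Ltbp4, whose interval (0.840 to 1.03) included 1, to 0.200 times (0.169 to 0.235) for Ltbp2. In the highest band the ratio of day 4 to day 1 lay between 0.781 and 1.19 for 6 members, with intervals that included 1. Those of Ltbp4 (1.15), Mfap4 (1.80), Fbn1 (0.578) and Ltbp2 (5.21, from 5 and 34 UMIs) did not include it.

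The levels of day 14 depended on which spots were taken. In the lowest band of spots of at least 1000 UMIs, Ltbp2, Eln and Mfap4 were at 49.2, 168 and 137 CPM on day 14, and without the hemoglobin filter Eln had 512. Under the 0.5% limit, Eln measured 84.5 CPM (72.5 to 98.0) on day 4, 1037 (983 to 1094) on day 7 and 1131 (1007 to 1265) on day 14. Ltbp3 had 327, 469 and 655 on those days and Ltbp4 had 301, 397 and 643. Eln, Ltbp3 and Ltbp4 thus had their highest level on day 14 in these spots. The intervals of days 7 and 14 did not overlap for Ltbp3 and Ltbp4, and did for Eln. Fast skeletal muscle spots were not taken out of the day 7 set, and their markers had 19054 CPM in the lowest band of that day. Their part in the day 7 levels was not tested. Fbn1 and Mfap4 were close to their day 7 level, at 1084 and 1027 for Fbn1 and at 892 and 855 for Mfap4. Ltbp2 was lower on day 14, at 464, 457 and 312, and Ltbp1 had 5 UMIs left, or 18.6 CPM (6.04 to 43.4). Fbln2 had 1494, 589 and 740 on days 4, 7 and 14, Mfap5 had 848, 611 and 707, and Emilin1 had 404, 240 and 275, all with their highest level on day 4. Day 14 rested on 268885 UMIs in 176 spots, with a median of 1228 UMIs per spot. On day 1 only 62 spots met the limit and Mfap4 had 0 UMIs of 229398, which allows up to 16.1 CPM.

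A ratio between members of the same spots does not depend on how libraries are scaled, so each member was also counted per UMI of Fbn1. The ratio rests on how well each mRNA is captured and was compared only between days. In the lowest band Eln had 0.0960 UMIs per Fbn1 UMI on day 1 and 0.0960 on day 4, then 0.990 (0.923 to 1.06) on day 7 and 1.12 (0.995 to 1.25) on day 14. Mfap4 went from 0.0418 to 0.539, 0.833 and 0.818, and Ltbp3 from 0.225 to 0.354, 0.443 and 0.634. In this band the ratio of these 3 genes to Fbn1 was higher on the late days than on day 1. Fbln2 ran the other way, at 1.48, 1.55, 0.554 and 0.697, as did Emilin1, at 0.511, 0.424, 0.219 and 0.315. Mfap5 per Fbn1 UMI was at its highest on day 4, at 0.95 (0.897 to 1.01). Spots under the 0.5% limit gave similar ratios on days 4, 7 and 14 for these 6 genes, such as 1.10 (0.933 to 1.3) for Eln on day 14. On day 1 they gave 0.261 (0.126 to 0.50) for Eln, from 12 UMIs, above the 0.0960 of the lowest band. For Ltbp3 they gave 0.326 (0.169 to 0.595) on day 1, from 15 UMIs. That interval held the Ltbp3 ratios of the same limit on day 4, 0.349, and day 7, 0.432. Ltbp4 per Fbn1 UMI was 1.49 on day 14 in the lowest band but 0.627 (0.515 to 0.761) under the limit.

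**Figure D3:**
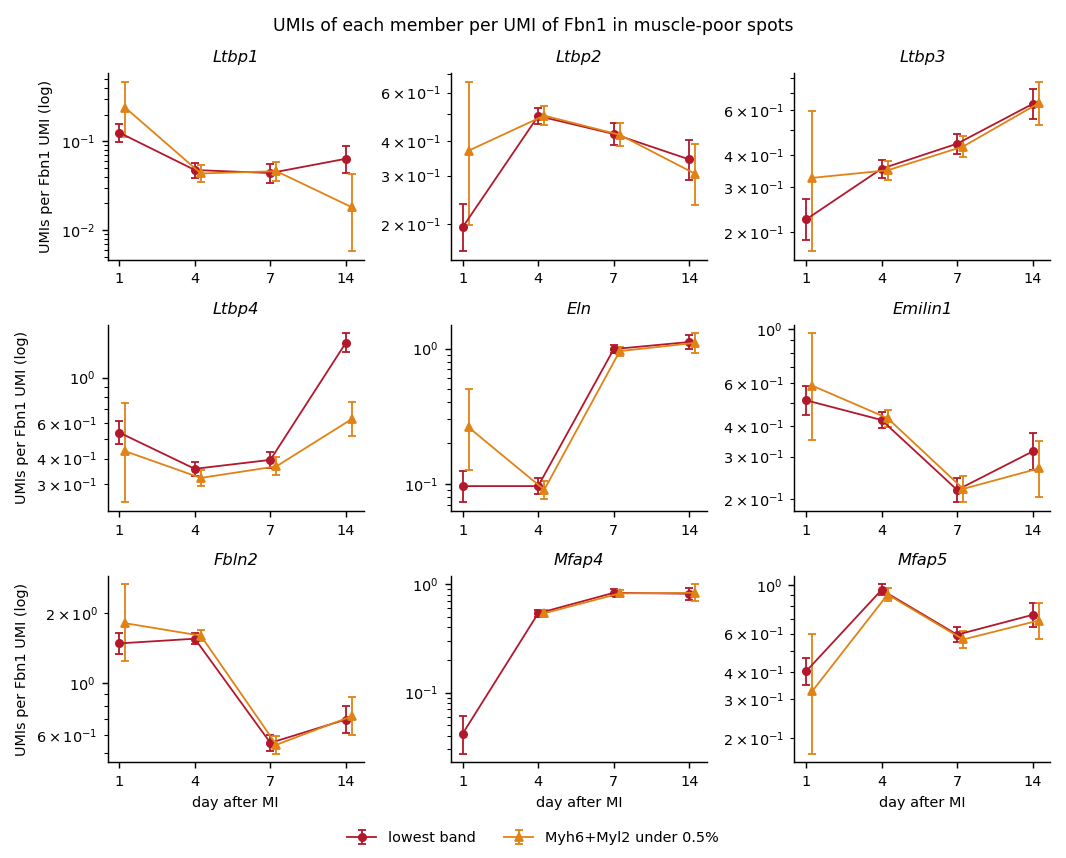
UMIs of each of 9 members per UMI of Fbn1 (log axes that differ between panels) against day after MI, in the lowest band (circles) and in spots with a Myh6 and Myl2 share under 0.5% (triangles), with exact 95% intervals. Mfap4 has no point on day 1 under the limit, where it had 0 UMIs. Eln steps from 0.0960 on day 4 to 0.990 on day 7 in the lowest band, while Fbln2 goes from 1.55 to 0.554.

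The next-lowest band, between the most muscle-poor tissue and the muscle-rich spots, had smaller differences from the highest band. Against the same highest-band libraries, 5 members were higher and none lower, where 3.08% of all genes were called higher and 0.344% lower. The log2 fold changes of the 5 were 2.90 for Ltbp2, 1.70 for Mfap5, 1.65 for Fbn1, 1.15 for Emilin1 and 1.14 for Fbln2, with adjusted p from 0.0121 to 0.0269 by edgeR. Mfap4, at 2.21 ± 0.64, did not pass (adjusted p = 0.0851). No member was called when day 1, day 4 or day 7 was left out, where 2, 0 and 1 genes in all were called higher, while the log2 fold changes were 2.37 to 3.0 for Ltbp2, 1.38 to 1.94 for Mfap5, 1.31 to 1.69 for Fbn1, 1.02 to 1.09 for Emilin1 and 0.94 to 1.13 for Fbln2. On day 14 the next-lowest band was near the muscle-rich level, with Fbn1 at 50.5 against 42.1 CPM and Eln at 16.5 against 18.8. On day 7 it was well above, at 358 against 78.3 for Fbn1 and 284 against 45.3 for Eln. In the next-highest band no member was called, and 0% of all genes were called by edgeR (168 genes and 0 members at an unadjusted p under 0.05, and 0 members by DESeq2).

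**Figure D4:**
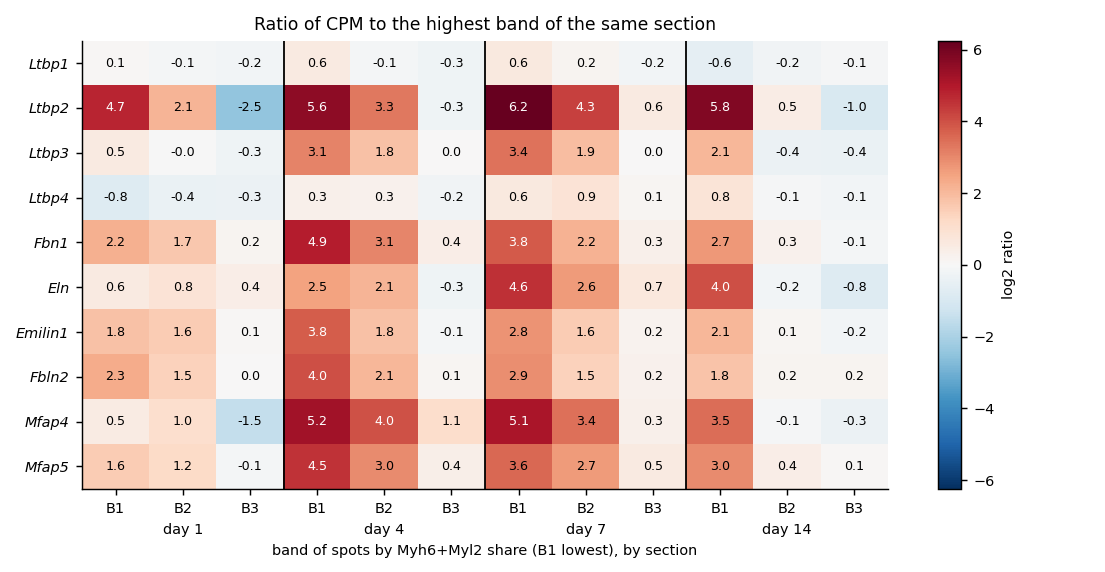
Log2 ratio of CPM in the lowest (B1), next-lowest (B2) and next-highest (B3) band over the highest band of the same section, for each member (rows) and day (blocks of columns), scaled to total UMIs. Red is above and blue below the highest band. B1 of day 14 stands out against B2 of the same section, and Ltbp1 and Ltbp4 have no value beyond 0.9 in either direction.

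Other genes of the elastic fiber and of TGF-beta were measured from lists chosen by known roles. Of 15 other elastic fiber genes, 11 were higher in the lowest band, 1 was lower and 3 did not pass, with a median log2 fold change of 1.91. Lox, the enzyme that starts the cross-linking of elastin and collagen, had 5.14 ± 0.52 (edgeR, adjusted p = 1.33e-05) and its relative Loxl3 had 3.54 ± 0.36. Adamtsl4, which binds fibrillin microfibrils, was lower with TMM at -0.71 but not called with total UMIs, and Efemp1, a fibulin family gene, had 0.27 and did not pass (adjusted p = 0.719).

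Of 22 genes of TGF-beta ligands, receptors and activators, 15 were higher and 2 lower, with a median log2 fold change of 0.90. Thbs1, whose product can release latent TGF-beta, had 4.03, and the ligand gene Tgfb3 had 2.98. The integrin gene Itgb6, at -0.93, and the co-receptor gene Tgfbr3, at -0.72, were lower with TMM but not with total UMIs, by which none of the 22 was lower. All 13 tested of 14 TGF-beta response genes were higher, with a median of 2.70, led by Tnc at 6.23 and Comp at 4.47, with Ski at 0.94 and Bhlhe40 at 0.50 at the low end. All 8 tested of 9 elastin-degrading proteases were higher as well, with a median of 3.24. The macrophage elastase gene Mmp12 had 4.51 and the gelatinase gene Mmp9 3.53, against 1.53 for Mmp2 and 1.09 for Ctsl.

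The cell types of the lowest band differed from the muscle-rich spots by more than the loss of muscle. Summed levels of 5 myofibroblast markers, all higher, were 818 to 7903 CPM against 65.4 to 172, and those of 7 macrophage markers, all higher, were 1021 to 6245 against 287 to 447. Neutrophil markers (3 of 3 tested higher) had 66.3 to 386 against 3.81 to 16.5, and mesothelial markers (3 of 4 tested higher) had 11 to 258 against 4.74 to 17.3. Smooth muscle markers, of which 1 of 3 was higher, had 25.6 to 102 against 8.60 to 22.9. Fast skeletal muscle markers were all higher and had 4.75 to 19.9 CPM on days 1, 4 and 14 but 19054 on day 7, and Myh1 was at 0 on the other days. Without the 117 spots of at least 10 such UMIs, and with the remaining spots ranked anew, 8 members were called higher and 1 lower. Ltbp4 in the lowest band of day 7 went from 433 to 626 CPM, in a band that was not simply the same spots less these. Atrial markers (3 of 3 tested higher) had 3.29 to 333 against 3.44 to 5.76, with Sln at 0 outside day 7. On day 7 the lowest band had Dkk3 at 182, Sln at 128 and Myl4 at 21.8 CPM. Myl7, the other atrial gene listed, had too few UMIs to be tested, so these values do not establish atrial tissue. Of 7 fibroblast markers 3 were higher and 1 lower, with 1574 to 14907 CPM against 2377 to 3142. Of 4 tested adipocyte markers none was called, with 5.28 to 784 CPM against 9.98 to 27.6. Markers of matrifibrocytes, which arise from myofibroblasts in the mature scar (3 of 3 tested higher), had 29.2 to 314 CPM against 3.10 to 9.60. Of 5 endothelial markers 0 were higher and 1 was lower, with 327 to 477 CPM against 267 to 410. All these calls are with TMM. With total UMIs 4 endothelial, 5 fibroblast, 4 mesothelial, 3 smooth muscle and 1 adipocyte markers were higher. On that scale 0 endothelial markers and 1 fibroblast marker were lower. The counts of the other lists in this paragraph did not change. The part of these cells in the members' differences was not tested.

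Within the lowest band, the 10% of spots richest in a marker list were set against the rest, to see which tissue the members followed. The lists were smooth muscle, mesothelium, macrophages and the collagen pair Col1a1 and Col3a1, each tested with edgeR on 8 libraries of 4 sections. Of all 8453 genes, 0.26%, 0.0473%, 3.02% and 0% were called in either direction, and no member was called in any of the 4 splits. At an unadjusted p under 0.05 by edgeR there were 4, 0, 1 and 6 members, and 752, 345, 1599 and 1100 of all 8453 genes. In the collagen split DESeq2 called 151 genes and 2 members, Mfap4 at 1.35 (adjusted p = 0.0219) and Fbn1 at 0.99 (adjusted p = 0.0478). DESeq2 called no member in the other splits.

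In the collagen-rich 10% the median log2 fold change of the members was 0.72 against -0.02 over all genes, or 1.08 against 0.28 with total UMIs, where neither a member nor any other gene was called by edgeR. Mfap4 had 1.32 ± 0.35 (edgeR, adjusted p = 0.198). It measured 44.6 against 6.8 CPM on day 1, 715 against 441 on day 4, 1777 against 831 on day 7 and 1046 against 157 on day 14, and was higher in the collagen-rich 10% in 4 of 4 sections. Eln measured 44.6 against 20.4 on day 1, 51.1 against 86.6 on day 4, 1315 against 1063 on day 7 and 982 against 212 on day 14, higher in 3 of 4 sections, with a log2 fold change of 0.37 ± 0.37. Cardiomyocyte markers of the whole lowest band were at 34060 and 42786 CPM on days 1 and 14, against 11853 and 8833 on days 4 and 7. The part of muscle in the contrasts of days 1 and 14 was not tested. Ltbp4, at -0.04 ± 0.30, and Ltbp1, at -0.07 ± 0.38, showed no difference beyond their error.

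In the macrophage-rich 10% the median log2 fold change was 0.16 over the members and -0.04 over all genes, or 0.53 and 0.28 with total UMIs. Fbln2, at 0.36 ± 0.31, and Fbn1, at 0.31 ± 0.29, were higher in 4 of 4 sections. Ltbp4 had -0.62 ± 0.25 (edgeR, adjusted p = 0.213) and Mfap5 -0.10 ± 0.33, or -0.23 and 0.27 with total UMIs. In the mesothelium-rich 10% Mfap4 had -0.60 ± 0.43 (adjusted p = 0.959), and without day 14 it was called lower at -1.12 (edgeR, adjusted p = 0.0194). On day 7 it measured 327 CPM there against 965 in the rest, and Ltbp2 measured 141 against 495. On day 14, when the rest of the band held much muscle, both were higher in that 10%, at 497 against 175 for Mfap4 and 153 against 68.2 for Ltbp2. In the smooth muscle-rich 10% the median log2 fold change was 0.31 over the members and -0.02 over all genes, or 0.46 and 0.10 with total UMIs. Eln had -0.02 ± 0.19, or 0.18 with total UMIs, and its CPM was higher in 3 of 4 sections. Ltbp2 had 0.51 ± 0.18 (edgeR, adjusted p = 0.298) and was higher in 4 of 4. Smooth muscle markers had only 70, 280, 78 and 68 UMIs in the lowest band on days 1, 4, 7 and 14. Mesothelial markers had 30, 37, 379 and 126. Spots were thus ranked on few marker UMIs, and a value near 0 in these 2 splits cannot show that a member is absent from such tissue.

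Across the 16 libraries of section and band, some genes followed single members closely, as Pearson's r of log2(CPM + 1) over 4759 other genes shows. The libraries share sections and the muscle gradient, so these values are a description. Fbn1 was nearest to Loxl1 (r = 0.996), a lysyl oxidase gene, Ltbp3 to Tgfb3 (r = 0.991) and Mfap4 to Mfap2 (r = 0.977), another microfibril gene. Mfap5 was nearest to Sparc (r = 0.992), a collagen-binding matricellular gene. Ltbp2 was nearest to the fibronectin gene Fn1 (r = 0.983), closely followed by H2-Aa (r = 0.982). The genes nearest to Fbln2 were Sirpa (r = 0.991) and Ifi30 (r = 0.989), both known from myeloid cells, and then Iqgap1 (r = 0.988). The nearest to Emilin1 was Sdc3 (r = 0.992). Eln had weaker partners, Nbl1 (r = 0.956) and Prelp (r = 0.955). Ltbp4 was nearest to Sparcl1 (r = 0.936) and Ltbp1 to Sh2b1 (r = 0.951). Among the members, Ltbp2 and Mfap5 were most alike (r = 0.971), close to Emilin1 and Fbln2 (r = 0.971), and Ltbp1 and Ltbp4 were least alike (r = 0.334).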

How the data were processed

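The authors made the deposited UMI counts per gene and spot with Space Ranger 1.3.0 on mm10, from images aligned by hand, without normalization. The submitters' notes also list Seurat 4.1.1. Here spots above 1% UMIs of 9 hemoglobin genes were removed, and 1 section per day was split into 4 equal bands by Myh6 and Myl2 share. The study also removed spots near the tissue edges by hand, a step that was not done here. UMIs were summed to 16 libraries. edgeR 4.0.16 (robust quasi-likelihood, TMM, section block) tested 11621 genes of at least 100 UMIs, adjusted by the Benjamini-Hochberg method over all genes. Standard errors are the fold change over the root of F. Splits used spots of at least 1000 UMIs. Levels are CPM of the spots taken, with exact Poisson intervals and exact conditional intervals of ratios. Counts come from 3′ ends, so levels were not compared between genes. The fit was tested on simulated data with the same spread for all genes and the same change in every section. That simulation cannot show how the fit treats a difference found in only some sections. Alternatives included DESeq2 1.42.0, total UMIs, each section left out and other filters and rankings. The members, lists and tests were chosen with earlier results of these data known. All 10 members were named, with up to 3 genes nearest to each. Of each list of elastic fiber, TGF-beta and protease genes, the 2 highest and 2 lowest tested genes were named. Cell type marker lists are given by counts and summed levels. Marker genes beyond these were named after their values were seen. Positions are from GENCODE vM21 (GRCm38), promoters from RefSeq. Genes that overlap members are not reported here. Sections are 4 mice of different days, so p-values do not measure a difference between mice of 1 day. The fit estimated a difference shared by the days, but a call does not establish that each day had it. Myh1 was called higher (edgeR, adjusted p = 3.39e-05), although in the lowest band it was at 0 CPM outside day 7.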

Additional observations from a re-analysis of the deposited data

Results flagged for a closer look

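With total UMIs, the ratio of the lowest to the highest band pointed in opposite directions on different days for Ltbp1 and Ltbp4, by counting intervals. The difference between days was not tested. Ltbp1 had ratios of 1.48 on day 4 and 1.53 on day 7 but 0.672 on day 14. Ltbp4 had 0.581 on day 1, then 1.23 on day 4, 1.53 on day 7 and 1.74 on day 14. These ratios are scaled to total UMIs. TMM factors were larger in the lowest than in the highest band on each day, so TMM would lower every ratio. They were 1.62 and 0.835 on day 4, and 1.58 and 0.946 on day 7. Directions by day were not computed with TMM, so the change of direction holds for total UMIs only. The day 7 bands include the fast skeletal muscle spots. With those left out and the rest ranked anew, the Ltbp4 level in the lowest band of day 7 was higher.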

How the results depend on the processing

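For the lowest against the highest band, 8 members were called higher under all 17 alternatives, and 162 of 170 member values kept direction and call. Ltbp1 was reversed with total UMIs (0.23) and lost its call in 6 more. No member was then called lower (0) with total UMIs, with genes of at least 1000 UMIs, in a fit of the 2 compared bands or when ranked on 8 cardiomyocyte genes. With total UMIs 6802 genes were higher and 1233 lower. Genes of at least 1000 UMIs gave 1679 and 1548, since fewer were tested, and the compared bands alone gave 1869 lower. Leaving out a section gave 2102 to 3037 genes higher and 1979 to 2777 lower, with 0 to 1 members lower.

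For the next-lowest band, genes higher and lower were 0 and 0 without the section block (0 members), 159 and 9 for genes of at least 1000 UMIs, and 225 and 9 for spots of at least 1000 UMIs. Genes lower were 16 with total UMIs, 78 without the hemoglobin filter, 15 without fast skeletal muscle spots and 307 in the compared bands alone, where 3 members were higher. Leaving out a section gave 0 to 954 higher, 0 to 561 lower and 0 to 6 members. In the next-highest band the compared bands alone called 22 genes.

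In the splits, leaving out a section called 7 to 258 genes by smooth muscle, 0 to 7 by mesothelium (0 to 1 members), 0 to 514 by macrophages and 0 to 147 by collagen. With the top 20% of spots, smooth muscle, mesothelium and macrophages gave 10, 13 and 9 genes. Spots of any depth gave 7 for mesothelium, 494 for macrophages and 12 for collagen. DESeq2 gave 11 for mesothelium, 434 for macrophages and 151 for collagen, with 2 members.

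By day, 7 members were highest on day 7 and 0 on day 14 in the lowest band. Under the 0.5% limit these were 3 and 3, in the lowest 10% of spots 2 and 4, both chosen after seeing the data, and without mitochondrially encoded genes 1 was highest on day 14. Of 280 levels by day under these alternatives, 120 moved beyond their counting interval. The causes of these changes were not tested. No paired analysis was possible between days because the days hold 1 mouse each, while the bands were paired by section in the fit. Counts of Ltbp2 in muscle-rich bands and of day 1 spots under the limit were among the lowest, which limits what they can show.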
